A study of Mus musculus with 8 samples.

Results

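Intracisternal A-particle (IAP) elements are endogenous retroviruses of the mouse, and their transcripts were followed in mouse embryonic stem cells (mESCs) that lost the histone H3K9 methyltransferase Setdb1, received an inhibitor of the H3K9 methyltransferases G9a and GLP, or both. The IAP set was taken as every repeat subfamily in the count files with the family name ERVK and a name that starts with IAP. The rule gave 25 subfamilies of the 1153 in the files, 10 of them internal regions and 15 of them long terminal repeats (LTRs), and all 25 passed the filter on low counts.

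Poly(A) RNA of 4 conditions was sequenced, with 2 biological replicates per condition and 8 libraries in all. Every library came from 1 cell line, #33-6, in which Setdb1 can be deleted conditionally, so the untreated WT cells carry the conditional allele too. UNC cells received 2 µM UNC0642, a small molecule that inhibits the catalytic activity of G9a and GLP, for 3 days, and KO cells received 800 nM 4-hydroxytamoxifen (4-OHT), which switches on the deletion, for 5 days. KO_UNC cells are labelled as given 800 nM 4-OHT for 2 days and then 2 µM UNC0642 for 3 days. The WT cells are labelled as untreated.

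An IAP provirus consists of an internal region, which holds the retroviral genes, between a pair of LTRs, which hold the promoter and the polyadenylation signal. Many LTRs also stand alone in the genome, since recombination between the LTRs of a provirus removes the internal region. In embryonic cells IAP elements are bound by KRAB zinc finger proteins, which recruit the corepressor Trim28 and with it Setdb1, the enzyme that trimethylates histone H3 at K9, and DNA methylation by Dnmt1 keeps them silent as well. G9a and GLP (genes Ehmt2 and Ehmt1) mainly dimethylate the same residue.

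Libraries held 11702590 to 26807807 counts, and no libraries were identical. Values are given as CPM, the count of a subfamily scaled to a fixed library size, after scaling with the trimmed mean of M values (TMM). Relative to the total counts, before TMM scaling, 3 counts corresponded to between 0.112 and 0.256 CPM. A subfamily or gene was called changed when edgeR's quasi-likelihood test, fitted on 16245 genes and subfamilies with Benjamini-Hochberg adjustment, gave an adjusted p under 0.05 with more than a 2-fold difference. A read that fits several copies was shared among them by the counting program, so closely related IAP names cannot be fully separated, and counts do not tell which copies were transcribed.

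The Setdb1 transcript was lowest in the 4 libraries from 4-OHT-treated cells. Setdb1 was at 169 and 127 CPM in WT, 130 and 86.4 CPM in UNC, 47.3 and 51 CPM in KO, and 61.1 and 34.1 CPM in KO_UNC. The 4-OHT libraries did not overlap with the others. The paper reports that SETDB1 protein was not detectable by western blotting after the treatment used for KO. In the fit without the replicate number, the decrease did not pass the test in KO (log2 fold change -1.59, SE 0.44, edgeR adjusted p = 0.181) or in KO_UNC (-1.64, SE 0.44, edgeR adjusted p = 0.0746). With the replicate number in the fit, Setdb1 was called lower in KO (edgeR adjusted p = 0.0164) and in KO_UNC (edgeR adjusted p = 0.00593). That fit treats same-numbered libraries as paired, which the labels do not state. mESC markers such as Pou5f1 and Nanog were present in every library, with a summed level of 2680 to 5430 CPM for 8 genes.

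Summed over the 25 subfamilies, IAP counts made up 0.0527% and 0.0414% of all counts in WT and 0.0527% and 0.0452% in UNC. They made up 0.6% and 1.03% in KO and 1.14% and 0.879% in KO_UNC. All 4 libraries from 4-OHT-treated cells lay above all 4 others, while the WT and UNC values overlapped, and so did the KO and KO_UNC values. The share of IAP in the counts of all ERVK subfamilies was between 7.58% and 9.6% without 4-OHT and between 19.1% and 27.6% with it. In bulk RNA, IAP transcription in more cells and more IAP RNA per cell cannot be told apart.

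IAPEz-int, the internal region with the highest counts, held most of these counts in every condition. It contributed 77.9% and 74.9% of the IAP counts in WT, 75.7% and 71.1% in UNC, 88.5% and 88.6% in KO, and 88.4% and 83.6% in KO_UNC. Ranked by count among all genes and subfamilies, IAPEz-int stood between 425 and 597 in the WT and UNC libraries and between 3 and 8 in the KO and KO_UNC libraries. IAPEy-int came next in the 4-OHT libraries, and below at least 3 other internal regions in each WT and UNC library. Its part was between 1.17% and 1.36% in the WT and UNC libraries and between 2.87% and 6.02% in the 4-OHT libraries.

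**Figure D1:**
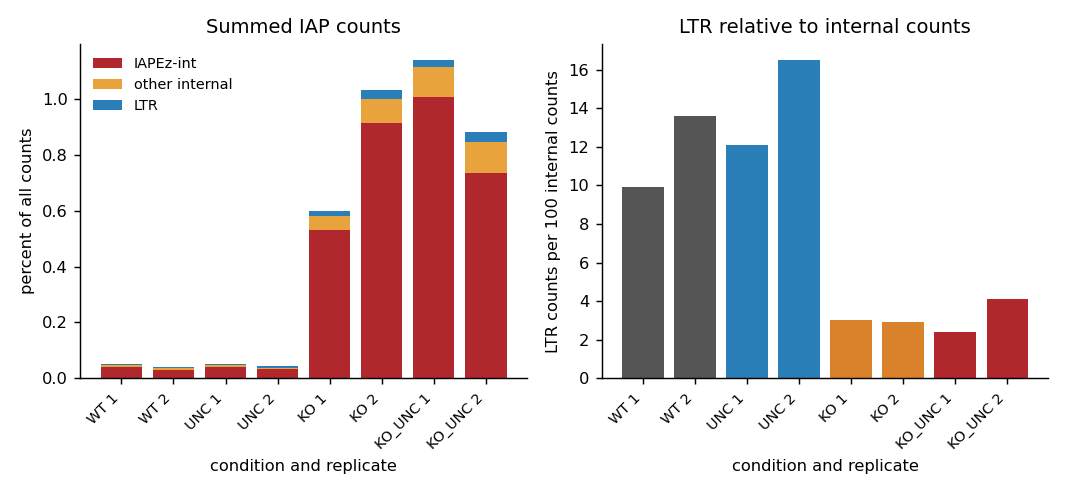
The left bars give summed IAP counts as a percent of all counts in each library, split into IAPEz-int, the other internal regions and the LTRs, and the right bars give LTR counts per 100 internal counts. The 4 libraries from 4-OHT-treated cells reach 0.6% to 1.14% of all counts, with 2.41 to 4.11 LTR counts per 100 internal counts against 9.94 to 16.5 in the other libraries.

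Internal counts grew more than LTR counts after 4-OHT. For every 100 counts on internal regions there were 9.94 and 13.6 counts on LTRs in WT, and 12.1 and 16.5 in UNC. The ratio was 3.03 and 2.94 in KO and 2.41 and 4.11 in KO_UNC, below all WT and UNC values. These are ratios of counts and not per length, so they compare libraries and not the levels of internal regions and LTRs.

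The comparison of KO with WT asks how each subfamily differed after the deletion of Setdb1 by 4-OHT. No library came from cells given 4-OHT with Setdb1 intact, so the deletion and 4-OHT itself cannot be told apart. IAPEz-int was at 418 and 281 CPM in WT, 427 and 267 CPM in UNC, 6030 and 8240 CPM in KO, and 12400 and 7100 CPM in KO_UNC. The KO and KO_UNC values lay far above the WT and UNC values, which overlapped with each other. IAPEz-int rose 20.4-fold in KO (log2 fold change 4.35, SE 0.65, edgeR adjusted p = 0.0166) and 27.9-fold in KO_UNC (4.80, SE 0.66, edgeR adjusted p = 0.007).

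IAPEy-int was at 7.31 and 4.98 CPM in WT, 6.58 and 4.68 CPM in UNC, 195 and 399 CPM in KO, and 497 and 511 CPM in KO_UNC. Its KO_UNC values were both above its KO values. The rise over WT was 48.5-fold in KO (log2 fold change 5.60, SE 0.57, edgeR adjusted p = 0.00497) and 82.3-fold in KO_UNC (6.36, SE 0.59, edgeR adjusted p = 0.00179). Without KO replicate 2 the log2 fold change of IAPEy-int in KO was 4.97. By fold change it stood at rank 3 of the 932 tested subfamilies in KO and at rank 4 in KO_UNC, where IAPEz-int stood at ranks 12 and 23.

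IAP-d-int was at 16.1 and 12.3 CPM in WT, 16 and 13.1 CPM in UNC, 70.3 and 90.3 CPM in KO, and 276 and 173 CPM in KO_UNC. The conditions with 4-OHT did not overlap with those without, and KO_UNC did not overlap with KO. IAP-d-int rose in KO by 2.50 on the log2 scale (SE 0.42, edgeR adjusted p = 0.0291) and in KO_UNC by 3.98 (SE 0.45, edgeR adjusted p = 0.00388).

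IAPEY3-int was at 12.2 and 8.48 CPM in WT, 17.8 and 15.4 CPM in UNC, 71.1 and 86.6 CPM in KO, and 129 and 107 CPM in KO_UNC. Its 4 conditions did not overlap and stood in that order. It was called in KO (log2 fold change 2.93, SE 0.41, edgeR adjusted p = 0.0129) and in KO_UNC (3.52, SE 0.42, edgeR adjusted p = 0.00479), but not in UNC (0.69, SE 0.38, edgeR adjusted p = 1).

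IAPEY4_I-int was at 19.9 and 13.8 CPM in WT, 19.6 and 12.8 CPM in UNC, 101 and 78.1 CPM in KO, and 121 and 55.7 CPM in KO_UNC. The 4-OHT libraries lay above the others, and KO and KO_UNC overlapped. Its change in KO, 2.41 on the log2 scale (SE 0.50, edgeR adjusted p = 0.0643), missed the threshold, while that in KO_UNC, 2.39 (SE 0.50, edgeR adjusted p = 0.0313), passed it. The alternative tool DESeq2 gave its change in KO an adjusted p of 0.00101. The KO_UNC value fell to 1.73 without KO_UNC replicate 1 (edgeR adjusted p = 0.162), and the call was also lost without WT replicate 1 and without WT replicate 2.

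Of the other 5 internal regions, IAPLTR3-int (log2 fold change 3.72, SE 0.40) and IAPLTR4_I (3.77, SE 0.69) were called in KO, and all 5 were called in KO_UNC. IAPA_MM-int was at 2.96 and 0.397 CPM in WT and 30.3 and 41.8 CPM in KO. Its log2 fold change of 4.50 in KO had an SE of 0.91 and missed the threshold (edgeR adjusted p = 0.0576), and the WT libraries held 34 and 11 counts of it. DESeq2 gave IAPA_MM-int an adjusted p of 1.66e-06 in KO. IAPEY5_I-int held 5 counts over both WT libraries, 70 over KO and 186 over KO_UNC, which gives ratios of 13.1 (95% exact counting interval 5.37 to 41.7) and 39.6 (16.7 to 123). The interval covers counting error only. IAPA_MM-int and IAPEY5_I-int lay outside the rule for named subfamilies and were chosen after their values were seen.

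**Figure D2:**
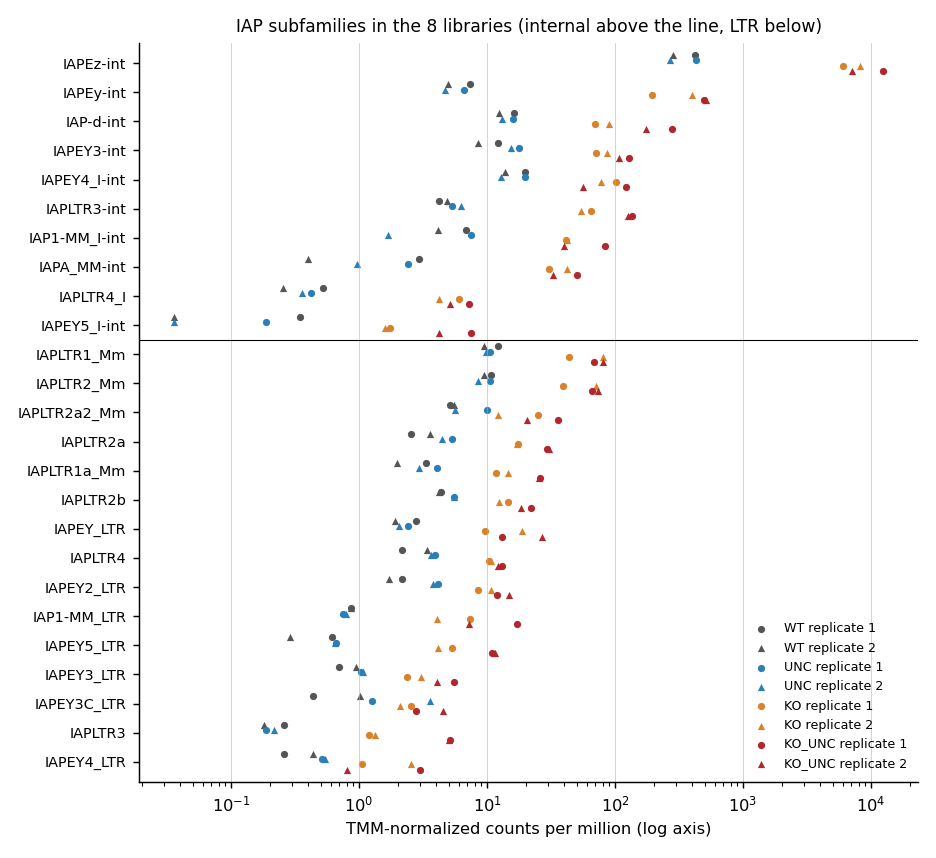
Each point is 1 library's TMM-normalized CPM (log axis) of 1 IAP subfamily, with internal regions above the line and LTRs below it, each sorted by mean level. For all 25 subfamilies both KO and both KO_UNC points lie above both WT points.

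The LTR subfamilies had a smaller median log2 fold change in KO than the internal regions, 2.32 against 3.54, and these medians were not tested against each other. IAPLTR1_Mm was at 12.2 and 9.42 CPM in WT, 10.5 and 9.82 CPM in UNC, 43.9 and 80.5 CPM in KO, and 68.5 and 80.2 CPM in KO_UNC. WT and UNC overlapped, as did KO and KO_UNC, and the 2 pairs of conditions lay apart. IAPLTR1_Mm rose by 2.53 on the log2 scale in KO (SE 0.44, edgeR adjusted p = 0.033) and by 2.78 in KO_UNC (SE 0.45, edgeR adjusted p = 0.0111).

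IAPLTR2_Mm followed nearly the same values, with 10.8 and 9.49 CPM in WT, 10.5 and 8.53 CPM in UNC, 39 and 71.5 CPM in KO, and 66.4 and 73.2 CPM in KO_UNC. Its log2 fold change was 2.45 in KO (SE 0.44, edgeR adjusted p = 0.0361) and 2.78 in KO_UNC (SE 0.45, edgeR adjusted p = 0.0111). IAPLTR2a was at 2.53 and 3.57 CPM in WT, 5.36 and 4.42 CPM in UNC, 17.4 and 17.2 CPM in KO, and 29.4 and 30.6 CPM in KO_UNC. Its 4 conditions did not overlap, and it was called in KO (log2 fold change 2.49, SE 0.47) and in KO_UNC (3.29, SE 0.48).

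IAPLTR1a_Mm was at 3.31 and 1.98 CPM in WT, 4.04 and 2.95 CPM in UNC, 11.7 and 14.6 CPM in KO, and 26.1 and 25.3 CPM in KO_UNC. It missed the threshold in KO (log2 fold change 2.32, SE 0.51, edgeR adjusted p = 0.0821) and passed it in KO_UNC (3.29, SE 0.53, edgeR adjusted p = 0.0111). With DESeq2 the adjusted p of IAPLTR1a_Mm in KO was 0.000822. IAPLTR2a2_Mm was at 5.14 and 5.52 CPM in WT, 10 and 5.61 CPM in UNC, 25.2 and 12.1 CPM in KO, and 35.7 and 20.6 CPM in KO_UNC. The lower KO library lay close to the higher UNC library, and the subfamily passed in neither KO (edgeR adjusted p = 0.264) nor KO_UNC (edgeR adjusted p = 0.0547).

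Besides IAPLTR2a2_Mm, 3 LTRs of IAPEY elements were not called in KO_UNC by edgeR, and all 3 had few counts. DESeq2 called IAPLTR2a2_Mm, IAPEY3_LTR and IAPEY3C_LTR higher in KO_UNC (DESeq2 adjusted p = 0.00136, 0.00457 and 0.0495) and did not call IAPEY4_LTR (0.128). IAPEY3_LTR was at 0.697 and 0.938 CPM in WT and 5.5 and 4.08 CPM in KO_UNC (edgeR adjusted p = 0.057). IAPEY4_LTR was at 0.261 and 0.433 CPM in WT, 1.06 and 2.53 CPM in KO, and 3.01 and 0.809 CPM in KO_UNC (edgeR adjusted p = 0.207). IAPEY3C_LTR was at 0.435 and 1.01 CPM in WT, 1.27 and 3.6 CPM in UNC, 2.54 and 2.09 CPM in KO, and 2.8 and 4.49 CPM in KO_UNC. The other 24 subfamilies had both KO libraries above both UNC libraries, and IAPEY3C_LTR did not, with a log2 fold change of -0.07 (95% confidence interval -1.68 to 1.53) between KO and UNC. Of the 16245 genes and subfamilies tested, 2039 had both KO libraries above both UNC libraries, as did 289 of the 932 repeat subfamilies.

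In all, 10 of 25 IAP subfamilies were called higher in KO than in WT and 0 lower, among them 6 of 10 internal regions and 4 of 15 LTRs. Of all genes and subfamilies tested, 1.11% were called higher in this comparison, and of the 932 repeat subfamilies 4.94%. In KO_UNC against WT, 21 of 25 were called higher and 0 lower, with 10 of 10 internal regions and 11 of 15 LTRs, against 3.6% of all genes and subfamilies and 12.1% of the repeat subfamilies. The 10 called in KO were all called in KO_UNC, 11 were called in KO_UNC and not in KO, and 4 were called in neither. Both libraries lay above both WT libraries for 25 of 25 subfamilies in KO, where 17.5% of all genes and subfamilies did so, and for 25 of 25 in KO_UNC, where 22.3% did. Of the 932 repeat subfamilies, 491 did so in KO and 578 in KO_UNC. Of the 248 ERVK subfamilies other than IAP, 173 did so in KO and 199 in KO_UNC.

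The median log2 fold change over the 10 internal regions was 3.54 in KO (2.41 to 5.60) and 4.38 in KO_UNC (2.39 to 6.36). Over the 15 LTRs it was 2.32 in KO (1.62 to 3.45) and 2.78 in KO_UNC (2.16 to 4.70), while the median of all genes and subfamilies was -0.02 and -0.01. By name, the IAPEz, IAP1, IAPA and IAP-d group had 2 of 5 members called in KO and 5 of 5 in KO_UNC, and the IAPEY group had 3 of 10 and 7 of 10. The IAPLTR1 and IAPLTR2 group had 3 of 6 and 5 of 6, and the IAPLTR3 and IAPLTR4 group had 2 of 4 and 4 of 4.

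The calls against WT rested on both WT libraries. Without WT replicate 1 or WT replicate 2, 0 subfamilies were called in KO by edgeR (22 had an unadjusted p under 0.05 in either case) and 0 (23 at an unadjusted p under 0.05) and 2 in KO_UNC, with the lone WT library assumed to vary like the other conditions. The KO count was 5 without KO replicate 1, 4 without KO replicate 2, 6 without KO_UNC replicate 1 and 5 without KO_UNC replicate 2, and all 25 fold changes stayed positive in each of these fits. DESeq2 on all 8 libraries called 20 subfamilies in KO and 24 in KO_UNC. Of the 16245 genes and subfamilies it called 539 higher in KO and 1076 in KO_UNC, and of the 932 repeat subfamilies 123 and 214.

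**Figure D3:**
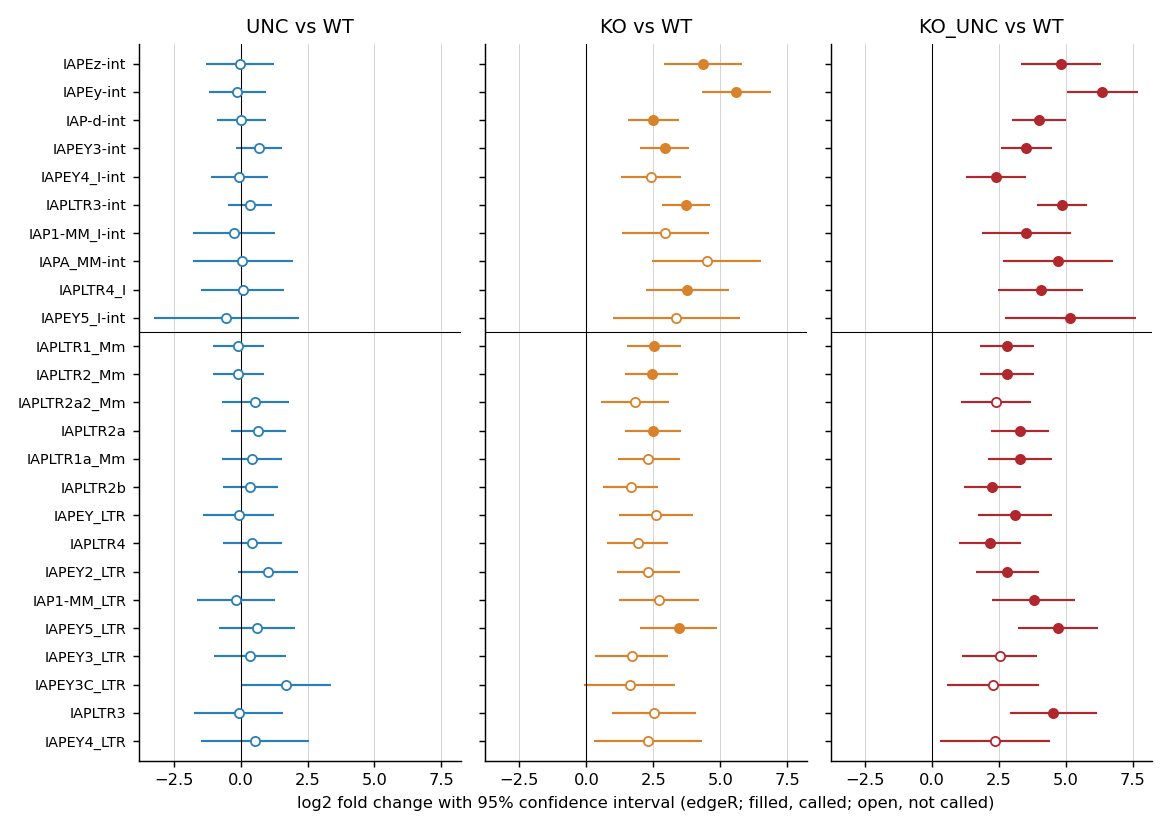
Log2 fold change against WT of each IAP subfamily with its 95% confidence interval from edgeR, in UNC, KO and KO_UNC. Filled points were called (0 in UNC, 10 in KO and 21 in KO_UNC) and open points were not, and internal regions stand above the line.

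The comparison of UNC with WT asks whether inhibition of G9a and GLP alone changed IAP transcripts. edgeR called 0 of 25 IAP subfamilies, and 0% of the 16245 genes and subfamilies were called in either direction (545 had an unadjusted p under 0.05, and DESeq2 called 120 higher). DESeq2 also called 0 of 25. The median log2 fold change was 0.01 over internal regions, 0.41 over LTRs and 0.4 over the ERVK subfamilies other than IAP. For IAPEz-int the change was -0.01 with a 95% confidence interval of -1.29 to 1.26, so a change of about 2-fold in either direction lay within the interval.

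One IAP subfamily had an unadjusted p under 0.05 in UNC against WT. This was IAPEY3C_LTR (log2 fold change 1.70, SE 0.75, unadjusted p = 0.0489 and edgeR adjusted p = 1). Its WT libraries held 5 and 28 counts and its UNC libraries 27 and 100. Both UNC libraries lay above both WT libraries for 2 internal regions and 9 LTRs, 11 of 25 in all, against 13.7% of all genes and subfamilies. They did so for 216 of the 932 repeat subfamilies and for 66 of the 248 ERVK subfamilies other than IAP. IAPEY2_LTR, at 2.18 and 1.7 CPM in WT and 4.14 and 3.78 CPM in UNC, and IAPLTR2a (log2 fold change 0.67, SE 0.45) are examples of the other LTRs with separate values. None of the 9 LTRs passed the test.

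KO_UNC and KO cells differed in the inhibitor and, as labelled, also in the days of 4-OHT (2 against 5), and the parts of the 2 in any difference cannot be told apart. In KO_UNC against KO, 0 of 25 IAP subfamilies were called by edgeR and by DESeq2, and 0% of the 16245 genes and subfamilies were called by edgeR (744 had an unadjusted p under 0.05, and DESeq2 called 91 higher). The fold change was positive for 24 of 25 subfamilies, with a median of 0.59 on the log2 scale, and 3 had an unadjusted p under 0.05. These were IAP-d-int (log2 fold change 1.48, SE 0.41, unadjusted p = 0.00514), IAPLTR3-int (1.13, SE 0.36, unadjusted p = 0.0116) and IAPLTR3 (2.01, SE 0.61, unadjusted p = 0.00917), with edgeR adjusted p of 0.69, 0.775 and 0.76.

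IAPLTR3-int was at 4.18 and 4.87 CPM in WT, 5.36 and 6.22 CPM in UNC, 65.2 and 54.3 CPM in KO, and 136 and 126 CPM in KO_UNC. IAPLTR3 was at 0.261 and 0.18 CPM in WT, 0.188 and 0.216 CPM in UNC, 1.19 and 1.32 CPM in KO, and 5.09 and 5.04 CPM in KO_UNC. For both, KO lay above WT and UNC, and KO_UNC lay above KO. WT and UNC overlapped for IAPLTR3 and did not overlap for IAPLTR3-int. With 8 counts of IAPLTR3 over the WT libraries, 52 over KO and 186 over KO_UNC, the ratios to WT were 6.1 (95% exact counting interval 2.88 to 14.9) and 24.7 (12.3 to 58.2).

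Both KO_UNC libraries lay above both KO libraries for 14 of 25 subfamilies, against 12.2% of all genes and subfamilies, and below for 0. Of the 932 repeat subfamilies 119 lay above in this way, and of the 248 ERVK subfamilies other than IAP 40 did. The replicates differed in the size of the step. IAPEz-int was 2.06 times as high in KO_UNC as in KO among the libraries numbered 1 and 0.861 times as high among those numbered 2. For IAPEy-int these ratios were 2.54 and 1.28, and for IAP-d-int 3.93 and 1.92. Of the 25 subfamilies, 19 were higher in KO_UNC in both replicates and 6 only in replicate 1. Without KO_UNC replicate 1 the fold change was positive for 20 of 25 subfamilies, with a median of 0.46, and that of IAPEz-int was -0.01.

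**Figure D4:**
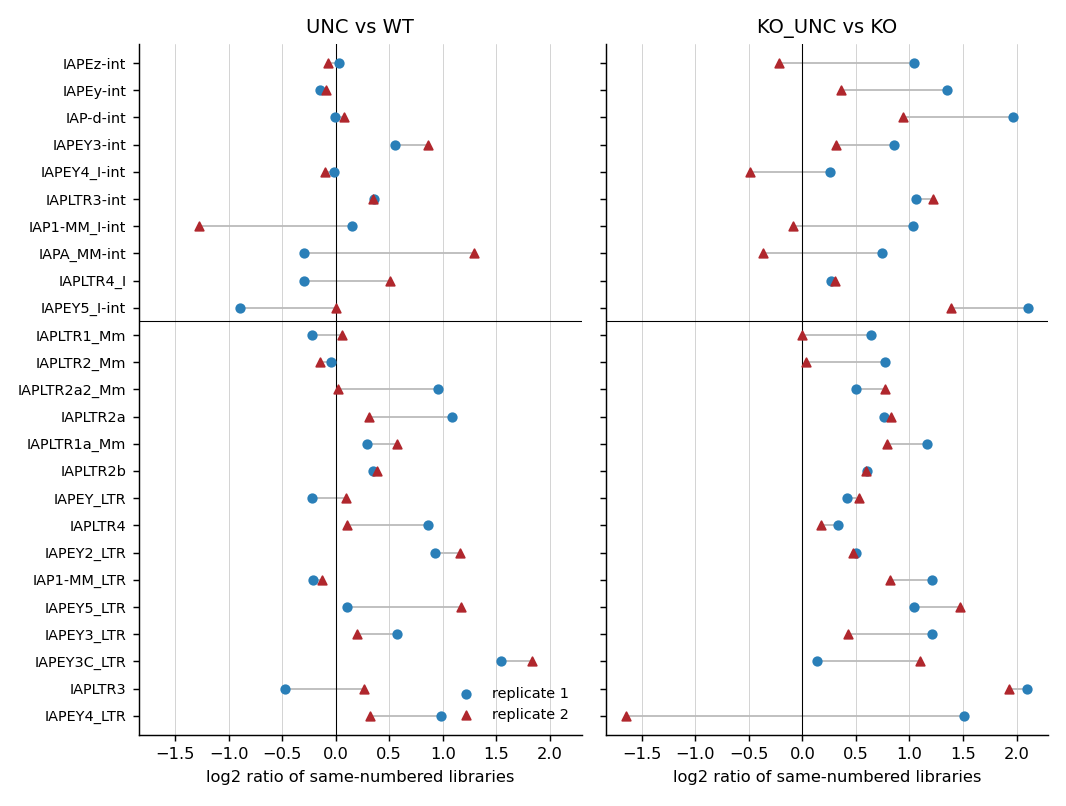
Log2 ratio of same-numbered libraries for each IAP subfamily, UNC over WT on the left and KO_UNC over KO on the right, with circles for replicate 1 and triangles for replicate 2. On the right 19 of 25 subfamilies lie above 0 in both replicates, and for IAPEz-int the replicates lie on opposite sides of 0.

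The interaction compares the difference of KO_UNC from KO with that of UNC from WT, and the days of 4-OHT enter it too. edgeR called 0 of 25 subfamilies, and DESeq2 also called 0 (edgeR called 0% of the 16245 genes and subfamilies, and 122 had an unadjusted p under 0.05). The median interaction was 0.43 on the log2 scale, and 1 subfamily had an unadjusted p under 0.05. This was IAP-d-int, at 1.45 (SE 0.57, unadjusted p = 0.0308). For IAPEz-int the interaction was 0.46 with a 95% confidence interval of -1.34 to 2.27, so neither a joint effect nor its absence was resolved with 2 libraries per condition.

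Taking UNC cells as the reference gave smaller counts in the same direction. In KO_UNC against UNC, the effect of 4-OHT in the presence of the inhibitor, 16 of 25 subfamilies were called higher (8 of 10 internal regions and 8 of 15 LTRs), against 1.13% of all genes and subfamilies and 5.36% of the repeat subfamilies. The count was 1 without UNC replicate 1, 2 without UNC replicate 2, 4 without KO_UNC replicate 1 and 7 without KO_UNC replicate 2. IAPEy-int had a log2 fold change of 6.48 (SE 0.59, edgeR adjusted p = 0.00353) in this comparison, and IAPEz-int 4.81 (SE 0.66, edgeR adjusted p = 0.0139). In KO against UNC, 7 of 25 were called higher (5 of 10 and 2 of 15), against 0.529% of all genes and subfamilies and 2.36% of the repeat subfamilies, and the count was 0 without UNC replicate 1 (19 at an unadjusted p under 0.05), 0 without UNC replicate 2 (18) and between 2 and 4 without any other library. The WT and UNC comparisons share the KO and KO_UNC libraries.

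Other retroviral subfamilies were called higher in KO as well. ETn/MusD elements, which are further targets of Setdb1, had a median log2 fold change of 2.95 in KO and 2.84 in KO_UNC, with 3 of 4 subfamilies called in each. This set held the ERVK names that start with ETn, RLTRETN or MusD. MMETn-int, with log2 fold changes of 2.29 in KO and 2.59 in KO_UNC, was not in it. The MMERVK10 and RLTR10 subfamilies had a median of 3.12 in KO (7 of 13 called) and 3.89 in KO_UNC (11 of 13 called), both above the IAP medians of 2.52 and 3.29. As for IAP, every subfamily of the ETn/MusD set and of the MMERVK10 and RLTR10 set had both KO and both KO_UNC libraries above both WT libraries. Over all ERVK subfamilies other than IAP the medians were 1.28 and 1.45, with 24 and 50 of 248 called. ERV1 had medians of 1.29 and 1.53 (11 and 19 of 103 called), ERVL 1.06 and 1.27 (0 and 3 of 94), ERVL-MaLR 0.85 and 1.02 (0 and 5 of 87), and the L1 retrotransposons 0.90 and 1.05 (1 and 12 of 127). For the 2 counts of 0, 19 ERVL and 12 ERVL-MaLR subfamilies had an unadjusted p under 0.05, and DESeq2 called 2 and 3 of them higher. No test compared these families with IAP.

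**Figure D5:**
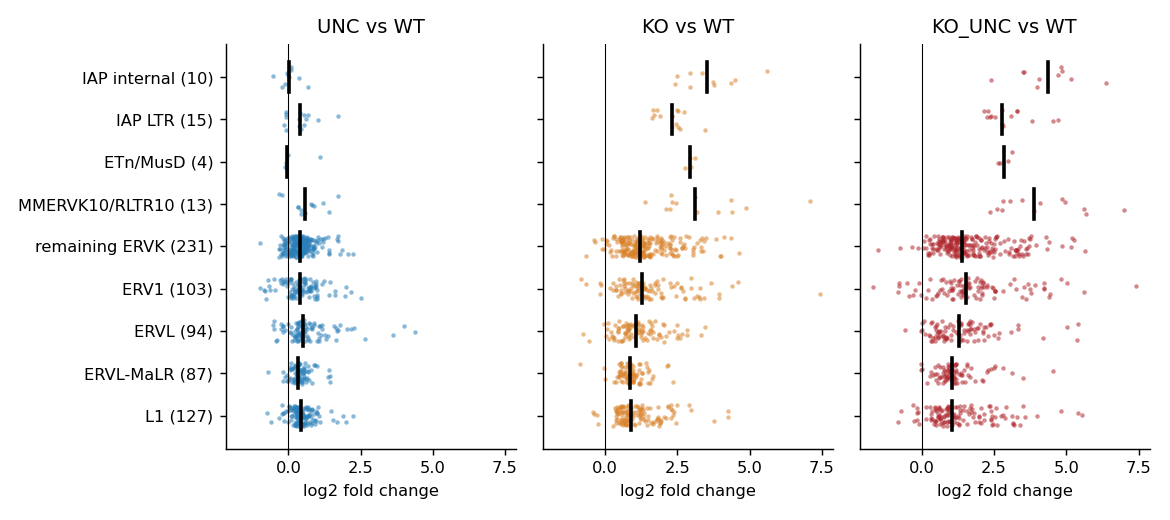
Log2 fold change against WT of every tested subfamily by group, with the number of subfamilies in brackets and the median as a black bar. IAP internal regions have medians of 3.54 in KO and 4.38 in KO_UNC, and remaining ERVK stands for ERVK without IAP, ETn/MusD and MMERVK10/RLTR10.

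Repeats as a whole took a larger share of the RNA in the same libraries. They held 3.7% and 2.77% of all counts in WT, 5.46% and 3.93% in UNC, 11.7% and 9.22% in KO, and 17.1% and 11.4% in KO_UNC. Genes that mark 2-cell-like cells, a rare state of mESC cultures, were called higher in KO_UNC too. Summed over 6 genes (Zscan4c, Zscan4d, Zscan4f, Tcstv1, Tcstv3 and Zfp352), they were at 7.84 to 23.2 CPM in WT, 218 to 717 CPM in UNC, 127 to 339 CPM in KO, and 526 to 1250 CPM in KO_UNC, and edgeR called 6 of 6 higher in KO_UNC and 0 in UNC and in KO. In UNC and in KO 6 of 6 had an unadjusted p under 0.05, and DESeq2 called 6 of 6 higher in each. The Zscan4 genes are near-identical copies and their counts are uncertain. The summed IAP shares of WT (0.0414% to 0.0527%) and UNC (0.0452% to 0.0527%) overlapped, and the summed markers of WT and UNC did not. The part of 2-cell-like cells in the IAP result of KO and KO_UNC was not tested. Markers of primitive endoderm (10.6 to 58.9 CPM over 6 genes), of trophectoderm (24.1 to 90.7 CPM over 6 genes) and of feeder fibroblasts (4.18 to 20.5 CPM over 6 genes) were low. The filter on low counts kept 6, 4 and 5 of them for testing, without Cdx2, Elf5 and Postn. Of those tested, edgeR called 0 of each list against WT. Of these 3 lists 1 gene each had an unadjusted p under 0.05 in 1 of the comparisons, and DESeq2 called 1 fibroblast marker higher in KO_UNC. The summed fibroblast markers split by replicate number in every condition, with 4.18 to 9.25 CPM in replicate 1 and 17.4 to 20.5 CPM in replicate 2. Primitive endoderm markers summed to 10.6 and 39.8 CPM in WT and to 56.8 and 58.9 CPM in UNC.

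Genes linked to IAP silencing were read from a list of 38, of which 37 were found and tested. The list also held Tet1 and Tet2, which are not silencing factors themselves. In UNC against WT 0 were called by edgeR and by DESeq2, and 0 had an unadjusted p under 0.05. In KO against WT 0 were called by edgeR, 6 had an unadjusted p under 0.05, and DESeq2 called 1 higher and 1 lower. In KO_UNC against WT 1 was called higher and 0 lower by edgeR, and DESeq2 called 4 higher and 1 lower. The 1 of 37 called by edgeR, 2.7%, is near the 3.6% of all genes and subfamilies called higher.

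The called gene was Resf1 (listed as 2810474O19Rik), a retroelement silencing factor that works with Setdb1. It was at 126 and 107 CPM in WT, 209 and 143 CPM in UNC, 1050 and 432 CPM in KO, and 1170 and 602 CPM in KO_UNC. Both 4-OHT conditions lay above the others, with a log2 fold change of 2.67 (SE 0.59, edgeR adjusted p = 0.0821) in KO and 2.93 (SE 0.59, edgeR adjusted p = 0.0274) in KO_UNC. The KO_UNC call was lost without WT replicate 1, without WT replicate 2 and without KO_UNC replicate 1.

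Of the genes that edgeR did not call, 4 others had a positive fold change with an unadjusted p under 0.05 in KO, and they were picked out after their values were seen. Atf7ip, a partner of Setdb1, had a log2 fold change of 1.49 (SE 0.51, edgeR adjusted p = 0.326) and Zfp809, a KRAB zinc finger protein that binds retroviral sequences, one of 1.61 (SE 0.50, edgeR adjusted p = 0.257). Zfp932, another KRAB zinc finger protein, had a value of 1.29 (SE 0.41, edgeR adjusted p = 0.264), and Dnmt3l, a cofactor of DNA methylation, a value of 0.87 (SE 0.36, edgeR adjusted p = 0.488). In KO_UNC these values were 1.42, 1.85, 1.64 and 0.60, and H3f3b, a gene of histone H3.3, stood at 1.52 (SE 0.45, edgeR adjusted p = 0.106).

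Trim28, the corepressor that brings Setdb1 to IAP elements, was at 395 and 1300 CPM in WT, 780 and 1120 CPM in UNC, 707 and 800 CPM in KO, and 760 and 841 CPM in KO_UNC. The WT replicates spanned all other values. Dnmt1, the maintenance DNA methyltransferase, was at 367 and 405 CPM in WT, 299 and 273 CPM in UNC, 339 and 197 CPM in KO, and 316 and 135 CPM in KO_UNC, with a log2 fold change of -0.78 in KO_UNC that did not pass the test (SE 0.51, edgeR adjusted p = 0.487). Uhrf1, which guides Dnmt1 to newly copied DNA, was at 267 and 441 CPM in WT, 368 and 430 CPM in UNC, 283 and 278 CPM in KO, and 309 and 222 CPM in KO_UNC.

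The genes of the inhibited enzymes were read as well. Ehmt2, which encodes G9a, was at 99 and 200 CPM in WT, 63.2 and 110 CPM in UNC, 86 and 118 CPM in KO, and 60.6 and 61.6 CPM in KO_UNC (log2 fold change -1.29 in KO_UNC, SE 0.47, edgeR adjusted p = 0.185). Ehmt1, which encodes GLP, was at 81 and 97.8 CPM in WT, 78.6 and 64.2 CPM in UNC, 73.5 and 71.8 CPM in KO, and 76.1 and 59.2 CPM in KO_UNC (log2 fold change -0.40 in KO_UNC, SE 0.36, edgeR adjusted p = 0.65). For both genes KO_UNC lay below WT in both replicates, and neither difference passed the test.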

How the data were processed

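Poly(A) RNA was sequenced as 150-bp pairs on a HiSeq X. The authors trimmed reads with Trim Galore 0.3.7, mapped them to GRCm38 with TopHat 2.1.1 and counted them with TEtranscripts 1.4.11, which gave the deposited raw counts of genes and repeat subfamilies. Conditions and replicate numbers came from the labels. The labels give 2 days of 4-OHT for KO_UNC, where the study's methods give 5.

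Counts were analysed with edgeR 4.0.16 (R 4.3.3): filterByExpr (minimum count 10, minimum total 15) kept 15313 of 24062 genes and 932 of 1153 subfamilies. TMM factors were between 0.81 and 1.2, and a quasi-likelihood model with 1 coefficient per condition was fitted to all 8 libraries. Fold changes used a prior count of 0.125. SEs were computed from the fold change and the F statistic. DESeq2 1.42.0 was an alternative. Figures used matplotlib 3.10.9.

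The members and gene lists were chosen with earlier results of these data known. Per-library values are given for the 5 internal regions and 5 LTRs with the highest mean CPM and for subfamilies whose call differed from theirs. Older gene symbols were matched through RefSeq synonyms, and 1 listed gene, Zfp989, was not matched. No IAP sequences were used here.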

Additional observations from a re-analysis of the deposited data

How the results depend on the processing

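The number of IAP calls depended on the setting. All 25 fold changes in KO and in KO_UNC against WT were positive with another normalization, filter, prior count, thinned counts, another tool and each library left out. IAP calls in UNC against WT, in KO_UNC against KO and in the interaction were 0 under every setting. For KO against WT, 10 calls became 20 with DESeq2 on all 8 libraries, 17 with DESeq2 on only the 4 libraries compared, 6 with scaling to total counts, 5 at a fold change above 10, and 0 to 9 with a library left out. For KO_UNC against WT, 21 calls became 12 at a fold change above 10 and 0 to 19 with a library left out. For KO_UNC against UNC, 16 became 10 with edgeR on only the 4 libraries, 6 with total counts, 10 at a fold change above 10, and 1 to 14 with a library left out. For KO against UNC, 7 became 17 with DESeq2 on all libraries, 15 with DESeq2 and 3 with edgeR on only the 4 libraries, 3 with total counts, 11 without the expression filter, 4 with thinned counts, 3 at a fold change above 10, and 0 to 4 with a library left out. Silencing genes called in KO went from 0 to 2 with DESeq2 on all libraries and to 1 with DESeq2 on 4 libraries, edgeR on 4 libraries, total counts, or no filter, and stayed at 0 with any library left out. In KO_UNC they went from 1 to 5 with DESeq2 on all libraries, 3 with DESeq2 on 4 libraries, 2 with total counts, 0 at a fold change above 10, and 0 to 1 with a library left out. The log2 fold change of IAPEz-int in UNC against WT changed sign, from -0.01 to 0.01 with TMM factors from genes only, 0 without the filter, and 0.31 and 0.26 without WT replicate 1 and UNC replicate 2 (-0.38 to 0.31 with a library left out). With a library left out it was -0.01 to 0.84 in KO_UNC against KO and -0.01 to 0.86 in the interaction, the lowest without KO_UNC replicate 1. With scaling to total counts the median of all genes and subfamilies in KO_UNC against WT moved to -0.18 and that of the IAP subfamilies to 3.13. The cause of these shifts was not tested, except that a left-out library or a subset leaves fewer libraries and a fold change above 10 is a stricter rule.

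The replicate numbers are shared by all conditions in the labels, which do not say that equal numbers mark a shared culture or day. With the number as a replicate block, edgeR called 21 IAP subfamilies in KO, 24 in KO_UNC, 23 in KO_UNC against UNC and 17 in KO against UNC, with 5 silencing genes in KO and 7 in KO_UNC, and 0 where the fit without it called 0 IAP subfamilies. Of the 16245 genes and subfamilies, the fit with the block called 612 higher in KO, 1539 in KO_UNC, 616 in KO_UNC against UNC and 360 in KO against UNC. Setdb1 was called lower with the block (edgeR adjusted p = 0.0164 in KO and 0.00593 in KO_UNC), as was Ehmt2 in KO_UNC (0.0235), and Resf1, Atf7ip, Zfp809 and Zfp932 were called higher in both, with H3f3b in KO_UNC (0.00949). Deviations from the condition means correlated between same-numbered libraries at 0.351 to 0.706 across genes (6 pairs of conditions), which are not independent.

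With 2 libraries per condition and 3 counts at 0.112 to 0.256 CPM before TMM scaling, differences in IAP LTRs below about 1 CPM rest on few reads. Whether the counted reads came from full proviruses, solitary LTRs or chimeric gene transcripts was not tested.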
